A study of Mus musculus with 2 samples.

Results

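The Sfmbt2 intronic miRNA cluster is a dense, repeat-derived array of microRNA (miRNA) genes on mouse chromosome 2. Its members were taken as all GENCODE M21 genes of type miRNA that lie fully inside the annotated span of Sfmbt2 and on its strand. This gave 119 of the 2202 miRNA genes in the deposited tables, with no use of their counts. Sfmbt2 (ENSMUSG00000061186.15) spans 10370510 to 10595253 on the plus strand of chromosome 2 (mm10). The members run from 10465287 to 10518279, a stretch of 52993 bases, and all 119 fall inside a single intron (10461473 to 10523944). It is intron 10 or 11 of the 2 annotated transcripts with 23 exons, and no member overlapped an Sfmbt2 exon.

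A miRNA is cut from a hairpin-shaped precursor and pairs with target mRNAs through its seed, bases 2 to 8. Sfmbt2 encodes a Polycomb-group protein and is imprinted in the mouse, with expression from the paternal allele in early embryonic and placental tissue. Its intronic miRNAs belong to the mir-297, mir-466, mir-467 and mir-669 families, which multiplied in rodents by repeated local duplication, and they are best known from placenta and embryonic stem cells.

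Cortical tissue of the left hemisphere was taken from male mice of the strain B6CASTF1/J at an age of 2 months. B6CASTF1/J is the F1 cross of C57BL/6J with CAST/EiJ. The labels name no treatment, and the 2 libraries, animal 3 (library 1) and animal 4 (library 2), form 1 group, so no condition was compared. The donor identifier is shared by both, so any spread between them may be partly technical. RNA below 30 bases was sequenced, and 3827158 reads in library 1 and 4553291 in library 2 were counted on the sense strand of a miRNA gene.

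Levels are given as counts per 1000000 of these reads (CPM). They are not divided by hairpin length, because the reads stand for short RNAs cut from the hairpin. Of 12 neuronal miRNA genes used to check the tissue, 9 were detected, which here means 10 or more sense reads in both libraries. Over all 2202 miRNA genes, 18.4% were detected. Mir124a-2, Mir124a-3 and Mir9-2 were not. Each of them has other copies on the list, and the part of reads that fit several copies was not tested. A list for trophoblast and pluripotent cells had 0 of 13 matched genes detected, with 9 and 5 reads in all and 8 genes at 0, among them Mir294 and Mir295. Mir122, a liver miRNA gene, was detected with 277 and 358 reads.

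The names in the RefSeq sequence table (GRCm38.p6) matched 0 of the 119 members and 9 of 10 genes of the same 4 families that lie outside the intron. The mature sequences of 4 of these relatives are printed to show what the families look like, with long runs of alternating purine and pyrimidine. They were picked as the only relative with reads (miR-466q), the seed met in most members (miR-467g), the most member hairpins sharing 18 bases (miR-466k) and the seed met in fewest members (miR-467h). Capitals mark the seed, and each sequence is written 5′ to 3′.
mmu-miR-466q (chr3:28419988-28420007, plus strand): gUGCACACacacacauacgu
mmu-miR-467g (chr5:34732872-34732892, minus strand): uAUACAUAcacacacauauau
mmu-miR-466k (chr3:85467396-85467418, plus strand): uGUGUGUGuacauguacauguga
mmu-miR-467h (chr9:115381898-115381919, plus strand): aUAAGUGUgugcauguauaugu
The bases of the miR-467g seed occurred in 78 of the 119 member hairpins (65.5%), against 143 of all 2202 hairpins (6.49%). For the miR-466k seed the counts were 50 members (42.0%) and 210 of all genes (9.54%), and 14 member hairpins shared a run of 18 bases with miR-466k. The miR-467h seed occurred in 1 member (0.840%) and in 14 of all genes (0.636%). The 8 relatives with a mature sequence in the table had 8 different seeds, and no member hairpin held a relative's whole mature sequence. A seed match in a hairpin is a description of shared letters, counted on the hairpin's own strand.

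The member hairpins differ in composition from the median miRNA gene. Over the 119 members the median GC content was 37.3%, ranging from 29.0% to 43.4%, against a median of 50.8% over all 2202 miRNA genes. The steps TG, GT, CA and AC made up a median of 50.0% of neighbouring base pairs in the members and 27.0% in all genes. Neither trait is particular to the members. The 10 relatives outside the intron ranged from 21.7% (Mir467g) to 46.1% (Mir466q) in GC content. In these steps they ranged from 37.0% (Mir467g) to 76.0% (Mir466q). Over all genes GC content ranged from 9.26% to 92.0% and these steps from 3.26% to 90.9%. Predicted folding energies had a median of -35.9 kcal/mol in the members and -33.2 kcal/mol in all genes. These energies are not divided by length, and the median hairpin length was 98 bases in the members and 89 in all genes. The 8 detected members overlapped in these features with the 104 without a read. Their median GC content was 39.3% against 37.2%, their median share of these steps 48.6% against 50.0%, and their median folding energy -36.3 against -35.9 kcal/mol.

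Within the array as annotated on mm10, many members are copies of each other. In 16 groups of identical hairpins there were 47 members, the largest group being 9 Mir669a genes and the next 7 genes around Mir467a (Mir467a-2, Mir467a-4, Mir467a-5, Mir467a-7, Mir467a-8, Mir467a-9 and Gm25022). The 12 starts of the Mir467a genes, Mir467b and Gm25022 were spaced 2413 to 2470 bases apart, with a median of 2451, so that the same unit recurs along the intron. In all, 72 members lay within 5 single-base edits of another miRNA hairpin. Every 20-base stretch of a hairpin was then looked up in the hairpins of all other miRNA genes, on both strands. A stretch found nowhere else was present in 65 members (54.6%), against 86.3% of all miRNA genes, and 54 members had none.

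The deposited tables have a tally row for reads that map to several places, apart from the genes. How such reads were handled is read from this layout alone, and the part of the copies in the counts was not tested. None of the 54 members without a stretch of their own had a read in either library. If reads mapped to several places enter no gene count, such hairpins could hardly be counted. Their counts of 0 are then no measure of level. Among the 65 members with a stretch of their own, 15 had a read and 8 were detected. Over all 119 members, the 54 included, that is 12.6% with a read and 6.72% detected. Of all miRNA genes, 34.4% had a read and 18.4% were detected. Genes without a stretch of their own made up 45.4% of the members and 13.7% of all miRNA genes. The same limit holds in the other 2083 miRNA genes. Reads were found there at 4 of 247 genes without a stretch of their own and at 739 of 1836 genes with one. The tally of reads mapped to several places was 833 times the cluster's counted reads in library 1 and 759 times in library 2, and how many of those reads belong to the cluster was not analysed here. A count of 0 allows up to 0.784 CPM of uniquely placed reads in library 1 and 0.659 CPM in library 2.

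Of the members with an unshared stretch, 50 had no read, and the unshared part of their hairpins ranged from 1.85% to 100% of stretches, with a median of 36.3%. Mir466g and Mir466l, whose miRNA is described as binding interleukin-10 mRNA, were picked after their values were seen and had no read. Of the 61 stretches of Mir466g, 61 were in no other miRNA hairpin and 57 in no other GENCODE transcript, and of the 102 of Mir466l, 87 and 77. In the detected members the unshared part had a median of 58.8% and was smallest in Mir467d, at 37.9%. The ranges overlapped. Copies outside annotated hairpins and transcripts were not analysed here.

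**Figure D1:**
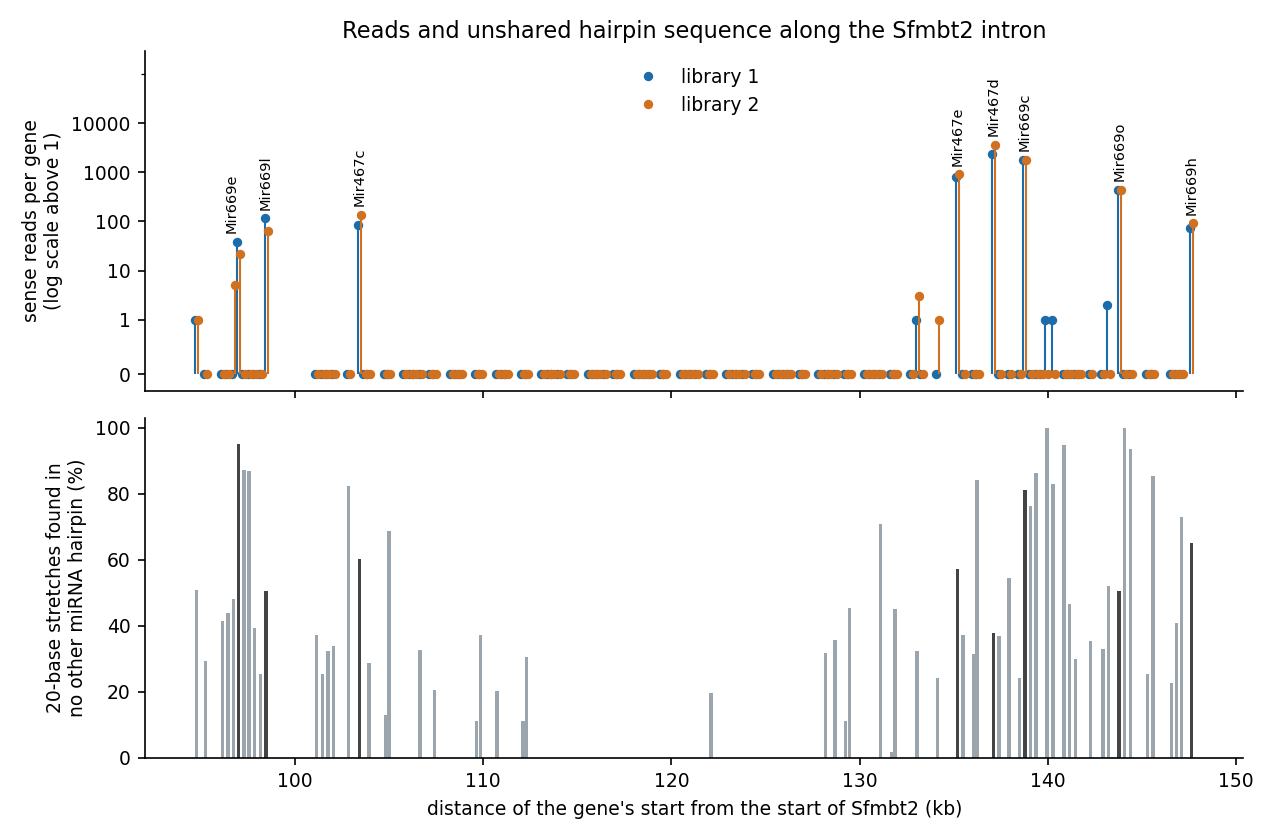
The upper panel plots the sense reads of each of the 119 genes in both libraries (log scale above 1) against the distance of its start from the start of Sfmbt2 in kb, and the lower panel plots the percentage of 20-base stretches found in no other miRNA hairpin, with detected genes in dark grey. Reads sit at both ends of the array, and the 72 genes between Mir467c and Mir467e hold 1 read in library 1 and 4 in library 2. These bounds were chosen after the values were seen.

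Reads fell at both edges of the array and hardly at all in its middle. The array was divided after the values were seen, at Mir467c and Mir467e, 2 detected genes with no detected gene between them. That the middle has no detected gene thus follows from the cut. The 17 members up to Mir467c included 3 detected genes and held 242 and 230 reads in libraries 1 and 2. The 30 members from Mir467e on included 5 detected genes and held 5449 and 6798 reads, or 95.7% and 96.7% of the cluster's reads. The 72 members between them, over 30555 bases, had 0 detected genes. Their only reads were at Mir466b-3, with 1 and 3, and at Gm26398, with 0 and 1.

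The middle was also where the copies lay. Of its 72 members 46 had an identical hairpin elsewhere, the median distance to the closest hairpin was 0 edits, and 20 had any stretch of their own. At the edges the median distance was 16 edits before the middle and 14 edits after it, and 17 of 17 and 28 of 30 members had a stretch of their own. With the array cut in this way by its reads, reads and unshared sequence were both lowest in the middle. Their parts in the pattern were not tested, and the limit on counting members without a stretch of their own applies here too.

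**Figure D2:**
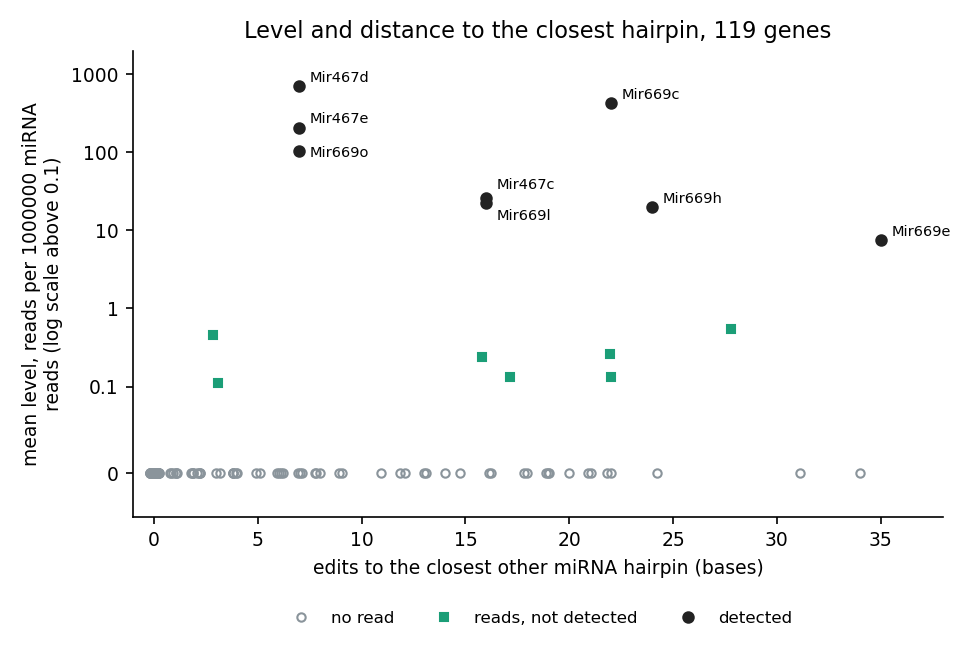
Each point is 1 of the 119 genes, with the number of single-base edits to the closest other miRNA hairpin on the x axis (undetected genes shifted by up to 0.25 sideways to separate them) and its mean CPM over both libraries on the y axis (log scale above 0.1). None of the 72 genes within 5 edits of another hairpin was detected, and 2 of them had a read. The distance was computed for the 119 genes only, so the same share over all miRNA genes is not known.

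The cluster as a whole held 5692 reads in library 1 (0.149% of sense-strand miRNA reads, 95% Wilson interval 0.145 to 0.153%) and 7032 in library 2 (0.154%, 0.151 to 0.158%). The log2 ratio of the shares, library 1 over library 2, was -0.05 (exact interval -0.11 to -0.0037), a small difference that only just passed counting error. Fewer cells with these miRNAs and less of them per cell cannot be told apart in tissue. The 8 detected genes held 99.9% of the cluster's reads in each library. No member had a read on the antisense strand.

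By family, the counted reads came from mir-467 and mir-669 alone, apart from a handful. The 14 Mir467 genes held 3231 and 4653 reads from 3 detected members, and the 29 Mir669 genes held 2455 and 2374 reads from 5. The 23 Mir466 genes held 3 reads in each library, the 48 genes known only by a Gm name held 3 and 2, and the 5 Mir297 genes held 0. Unshared sequence was also present in the families with few or no reads. A stretch of their own was found for 14 of 23 Mir466 genes and 5 of 5 Mir297 genes, against 4 of 14 Mir467 genes and 16 of 29 Mir669 genes. The median unshared part was 29.9% of stretches in the Mir466 genes, 25.3% in Mir297, 0% in Mir467 and 20.6% in Mir669. Whether these stretches lie in the mature miRNA was not analysed here, and their part in the counts was not tested. The mir-467 part of the cluster's reads was 56.8% in library 1 and 66.2% in library 2.

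The mir-467 family supplied the member with the most counted reads. The tally of reads mapped to several places lies outside these counts. Ranks and orders given here and below thus hold for counted reads only. Mir467d (ENSMUSG00000077021.2; chromosome 2, 10507630 to 10507714) had 2327 reads in library 1 and 3598 in library 2, which is 608 and 790 CPM, or 699 ± 129 CPM (mean ± SD over the 2 libraries, n = 2, as for the genes that follow). It stood at rank 112 of all 2202 miRNA genes by mean CPM. Its 85-base hairpin had 25 of 66 stretches to itself, the smallest unshared part among the detected members. Its closest relative is its neighbour Mir467e (ENSMUSG00000076948.2; 10505721 to 10505807), 7 edits away, which had 818 and 918 reads, or 214 and 202 CPM (208 ± 8.57). Mir467c (ENSMUSG00000077049.2; 10473931 to 10474027), at the opposite edge of the array and 16 edits from Mir467d, had 86 and 137 reads, or 22.5 and 30.1 CPM (26.3 ± 5.39).

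Of the mir-669 family, Mir669c (ENSMUSG00000076118.1; 10509296 to 10509404) was the highest, with 1783 and 1763 reads, or 466 and 387 CPM (427 ± 55.6). Between it and Mir467d lie 3 genes without a read (Mir466, Gm22091 and Mir297c), and its hairpin is 22 edits from the closest other, Gm24342. Mir669o (ENSMUSG00000077086.1; 10514300 to 10514395) had 443 and 428 reads, or 116 and 94.0 CPM (105 ± 15.4). Mir669h (ENSMUSG00000080594.1; 10518155 to 10518279), the last gene of the array, had 74 and 91 reads, or 19.3 and 20.0 CPM (19.7 ± 0.460). The remaining detected genes lay at the front of the array and were low. Mir669l (ENSMUSG00000076959.1; 10468971 to 10469068) had 116 and 65 reads, or 30.3 and 14.3 CPM (22.3 ± 11.3). Mir669e (ENSMUSG00000080653.1; 10467495 to 10467613) had 39 and 22 reads, or 10.2 and 4.83 CPM (7.51 ± 3.79), with 95 of its 100 stretches its own.

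A further 7 members had reads below the detection minimum. Mir669f had 0 and 5 reads, Mir466n 2 and 0, and Gm22072 1 in each library. Gm22239 and Gm22925 had 1 read each in library 1 and 0 in library 2, and Mir466b-3 and Gm26398 are given above. These counts differ by too few reads for any order between the genes or the libraries to be read.

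In counted reads, the detected levels spanned 93.1-fold, from Mir669e to Mir467d. Within each library Mir467d, Mir669c, Mir467e and Mir669o followed in this order, and each was above the next beyond counting error. The ratio of Mir467d to Mir669c was 1.31 (exact 95% limits 1.23 and 1.39) in library 1, and in library 2 it was 2.04 (1.93 and 2.16). That of Mir467e to Mir669o was 1.85 (1.64 to 2.08) and 2.14 (1.91 to 2.41). The next genes had no stable order. Mir467c was below Mir669l in library 1 (ratio 0.741, 0.554 to 0.988) and above it in library 2 (2.11, 1.56 to 2.88), and Mir669l was above Mir669h in library 1 and below it in library 2. Mir669e was the lowest in both.

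**Figure D3:**
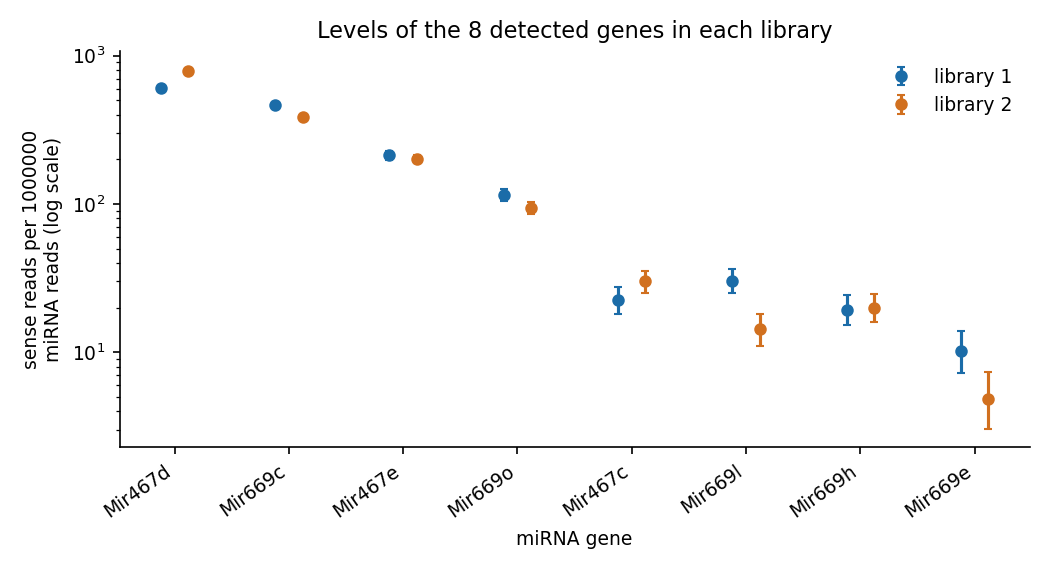
Points show the CPM (log scale) of each of the 8 detected genes in library 1 and library 2, and bars show 95% exact Poisson intervals, which cover counting error only. Mir467d is the highest in both libraries, at 608 and 790 CPM, and Mir669e the lowest, at 10.2 and 4.83 CPM.

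The proportions within the cluster differed between the libraries by more than its total did. Mir467d made up 40.9% of the cluster's reads in library 1 (Wilson interval 39.6 to 42.2%) and 51.2% in library 2 (50.0 to 52.3%), or 46.0% ± 7.27 (SD, n = 2). Over the 28 pairs of detected members, the ratio of their counts had intervals that did not overlap between the libraries in 13 (46.4%). The same held for 40.8% of the 82215 pairs of all detected miRNA genes, so the members' share was near that of the tables as a whole. The ratio of Mir669c to Mir669o was among the others, at 4.02 (3.63 to 4.48) and 4.12 (3.70 to 4.59).

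To ask which members differed, an exact binomial test (two-sided) was run on every gene whose reads in both libraries summed to 10 or more, relative to the library totals. Its p-values were adjusted over all 508 such genes (Benjamini-Hochberg), and they measure these 2 libraries against counting error, not a condition. It called 5 of the 8 members tested, where 48.4% of all genes were called, so the members' share was near that of the tables as a whole. Of the 8 members, 4 were called higher in library 1 and 1 higher in library 2. Over all genes tested, 25.2% were called higher in library 1 and 23.2% higher in library 2. With 8 members these shares by direction are too coarse to compare.

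Mir467d was 1.30-fold higher in library 2 (adjusted p = 1.79e-22 by the exact test), with a log2 ratio, library 1 over library 2, of -0.38 (-0.45 to -0.30). The called mir-669 genes went the other way. Mir669l was 2.12-fold higher in library 1 (log2 ratio 1.09, 0.64 to 1.55, adjusted p = 2.26e-06) and Mir669e 2.11-fold (1.08, 0.29 to 1.90, adjusted p = 0.0103). Mir669c and Mir669o were 1.20-fold and 1.23-fold higher in library 1 (log2 ratios 0.27 and 0.30, adjusted p = 1.34e-07 and 0.00514). Mir467e, Mir467c and Mir669h did not pass, with log2 ratios of 0.08 (-0.05 to 0.22), -0.42 (-0.83 to -0.02) and -0.05 (-0.51 to 0.41).

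edgeR's exact test adds a common spread beyond counting error, a coefficient of variation of 33.2%, estimated from the same 2 libraries that it then compares. A low number of calls follows from this construction, and 0 of the 8 members differed. After adjustment 0.787% of all genes were called. At an unadjusted p under 0.05 the members' count was also 0, and the share over all genes was not computed at that threshold. Other miRNA lists had different sums in libraries 1 and 2. The red blood cell list (3 of 3 genes detected) summed to 134 and 1549 CPM, the neuronal list to 77660 and 52536 CPM and the liver gene Mir122 to 72.4 and 78.6 CPM, and their part in the members' differences was not tested.

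**Figure D4:**
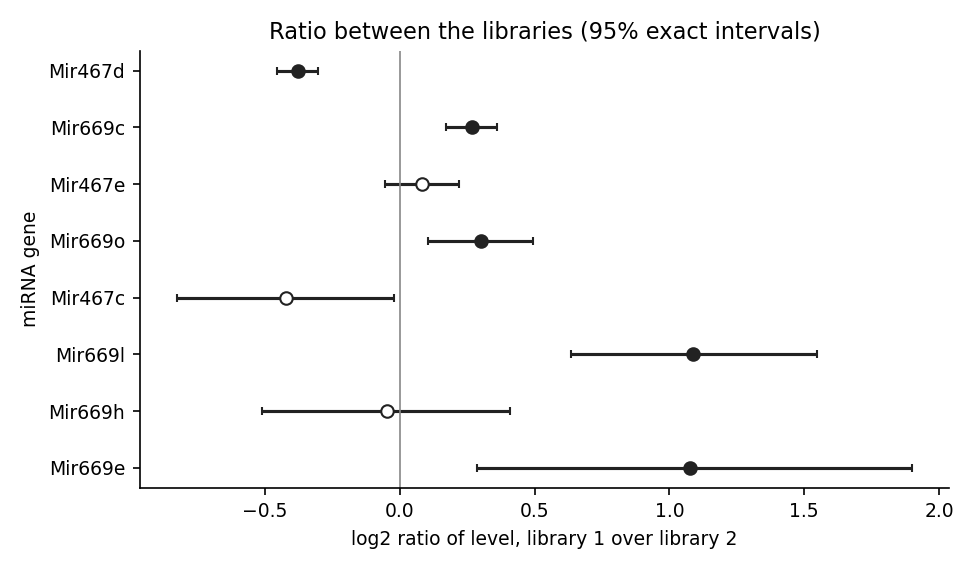
Points show the log2 ratio of the level in library 1 over library 2 for the 8 detected genes, with 95% exact intervals that cover counting error only, and filled points passed the binomial test. The 4 called mir-669 genes lie to the right of 0 and Mir467d to the left.

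Relatives of the cluster elsewhere in the genome had few counted reads. Of the 10 Mir297, Mir466, Mir467 and Mir669 genes outside the Sfmbt2 span, 1 had reads and 0 were detected. This was Mir466q (ENSMUSG00000092990.1) on chromosome 3, whose mature sequence is shown above, with 4 reads in library 1 and 12 in library 2, or 1.05 and 2.64 CPM. The others, such as Mir467g, Mir466k, Mir467h and Mir669n, had 0 reads. All 10 hairpins had a stretch of their own. Member hairpins sharing 18 bases with the mature sequence numbered 14 for miR-466k, 3 for miR-467h, 1 for miR-669n and 0 for miR-467g. The part of shared sequence in the counts of 0 was not tested.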

How the data were processed

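The authors deposited 1 table of whole-number read counts per miRNA gene for each library, not normalized. The build is mm10 per the labels and the annotation M21 per the deposited descriptions of the files, and all 2202 gene IDs matched GENCODE M21. The aligner is not given in the sources used here. Each table has 3 count columns (strand ignored, sense, antisense) and 4 tally rows, the layout of STAR's gene counts. The tally rows stayed out of library sizes, and reads mapped to several places made up 41.7% and 41.1% of all reads in libraries 1 and 2.

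From the sense column, CPM, shares with Wilson intervals and exact intervals were computed (Python 3.11.15, scipy 1.17.1). Intervals and limits (3 counts for a count of 0) cover counting error only. Reads carry no molecular identifiers, so reads copied from the same molecule could not be told apart. The intervals may thus be too narrow and the p-values of the binomial test too small. The binomial test used an adjusted p threshold of 0.05. With 1 group of 2 libraries edgeR's quasi-likelihood test has no residual degrees of freedom, so edgeR 4.0.16 (common dispersion, exact test) and DESeq2 1.42.0 size factors served as alternatives. Hairpins came from GENCODE transcripts on mm10. Bases or copies in which the 2 parental genomes of the animals differ were not analysed here. Genes annotated at the same place counted as 1 locus. The copy search was planned against the genome and run against miRNA hairpins, without a genome sequence. Folding used RNAfold 2.7.2. The binomial test was checked on simulated counts with counting error only, scaled by the genes left unchanged, not by library totals as here. The edgeR test was checked on simulated counts with added spread and no changed genes.

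The members and lists were chosen with earlier results of these data known. By rule, all members with a read are named, and the 5 relatives outside the span with the highest mean CPM. As 9 of the 10 relatives had 0 reads, this order gave only Mir466q, and the other relatives and the members without a read were named for their sequence or position after the values were seen. Parental alleles and hairpin arms were not analysed here, and both arms of a hairpin are counted together.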

Additional observations from a re-analysis of the deposited data

Results flagged for a closer look

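Reads mapped to several places, a tally outside the counted genes, made up 41.7% of all reads in library 1 and 41.1% in library 2. Which genes those reads fit was not analysed here.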

How the results depend on the processing

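The cluster's share of reads, 0.152% ± 0.00404 (SD, n = 2), became 0.164% in the column that ignores strand, whose total is smaller, and 0.0521% with all reads as the denominator. Leaving out a library gave 0.149 to 0.154%, and for the Mir467d share of the cluster 40.9 to 51.2%. The number of detected members was 8 at minimums of 5, 10 and 20 reads, 10 at a minimum of 1, and 8 in either library alone. The binomial test called 5 of 8 members with TMM factors (49.2% of all genes tested), 5 of 15 with no count minimum (33.1%), 5 of 9 at a minimum of 5 reads (43.3%), 5 of 8 at 20 reads (56.8%) and 5 of 8 in the column that ignores strand (46.2%). With DESeq2 size factors it called 6 of 8 (48.4%), the addition being Mir467c (log2 ratio -0.46, adjusted p = 0.0463; 0.0617 to 0.102 under the other binomial settings). With edgeR's exact test, whose spread comes from the same 2 libraries, the count was 0 (0.787%). Members with a stretch of their own numbered 65 at 18, 20 and 22 bases, and also 65 when all GENCODE transcripts were searched, an alternative chosen after seeing the data. Depth limits the 7 members with 1 to 5 reads.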
